A study of Homo sapiens with 6 samples.

Results

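The oxygen-sensing pathway was followed through 10 genes in the CD20+ and CD20- fractions of melanospheres: the transcription factor subunits HIF1A and EPAS1, and 8 genes known as hypoxia targets (VEGFA, CA9, ADM, NDRG1, EGLN3, BNIP3, SLC2A1 and ANKRD37). They were picked by symbol, and all 10 were found among the 58395 genes of the deposited table. All 10 passed the filter of a mean of at least 1 FPKM, which 13155 genes passed. FPKM are fragments counted per kilobase of exon, here divided by a size factor per library that was not the fragment total itself. The cells are given as M14, a long-established line from a human melanoma that was grown without attachment as floating spheres. The spheres were broken up mechanically, stained for the B-cell surface antigen CD20 and separated by flow sorting into 3 CD20+ and 3 CD20- samples. Both fractions therefore shared the cell line, the sphere culture, the dissociation and the staining, and differed in the sort. Replicates carry the numbers 1 to 3 in each group, with nothing on whether each was its own culture; the p-values thus speak only of the scatter among these libraries, possibly of technical origin. The labelled cell type was marked in part. Of 10 melanocytic markers 3 reached a mean of 1 FPKM: PMEL averaged 26.1 FPKM in CD20+ and 14.96 FPKM in CD20- cells (called higher in the paired fit described below, adjusted p = 0.0117, limma), GPR143 5.45 and 4.10 FPKM, and MITF 2.04 and 2.19 FPKM. The GPR143 means rest on replicate 1, at 13.4 FPKM in CD20+ and 9.61 FPKM in CD20- cells, against 1.26 to 1.60 FPKM in the other libraries. The other 7 markers were below a mean of 1 FPKM, with SOX10, MLANA and TYR at or below 0.0717, 0.262 and 0.0207 FPKM in every library. Of 8 epithelial markers 5 reached 1 FPKM, among them KRT8 at 227 FPKM in CD20+ and 198 FPKM in CD20- cells and KRT18 at 193 and 181 FPKM, while CDH1, KRT5 and KRT14 stayed at or below 0.121, 0.118 and 0.0273 FPKM.

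Cells sense oxygen through the hypoxia-inducible factors (HIF). The alpha subunits, encoded by HIF1A and EPAS1, are made continuously; while oxygen is present, prolyl hydroxylases mark them for the VHL ubiquitin ligase and the proteasome destroys them. When oxygen falls the alpha proteins persist, pair with ARNT and bind short DNA elements with the core ACGTG or GCGTG near their targets. Control acts largely on the protein, so the mRNA level of an alpha subunit is not a measure of the amount of HIF protein, which was not measured here. In tumours the targets serve glucose uptake, acid balance, mitophagy and the growth of vessels.

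Because the 8 targets are known for HIF binding, the 250 bases before the start site were searched for the cores ACGTG and GCGTG on both strands; where CACGTG occurs, ACGTG is found once on each strand and the matches overlap. RefSeq promoters (GRCh38.p14) were matched for 8 of the 10 genes. VEGFA and NDRG1 were not matched. The start site is the RefSeq one, which can differ from the outer end of the gene coordinates printed below. By those coordinates the windows of EPAS1, ADM, EGLN3, SLC2A1 and ANKRD37 lie inside the gene. The windows of CA9 and BNIP3 lie partly inside it. Positions are therefore counted from the RefSeq start and not from the outermost start. Of the 35116 promoters in that set, 18.5% held ACGTG, 32.2% held GCGTG and 43.2% held either. The 4 target promoters with at least 1 match are shown 5′ to 3′ in the direction of the gene, with matches to either core in capitals, so that the number and place of the cores can be seen.
CA9, chr9:35673678-35673927, plus strand: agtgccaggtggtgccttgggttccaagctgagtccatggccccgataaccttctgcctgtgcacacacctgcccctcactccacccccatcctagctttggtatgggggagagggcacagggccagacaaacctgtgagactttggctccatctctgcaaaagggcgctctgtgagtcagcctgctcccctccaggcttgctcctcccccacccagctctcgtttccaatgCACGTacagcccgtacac
ADM, chr11:10304823-10305072, plus strand: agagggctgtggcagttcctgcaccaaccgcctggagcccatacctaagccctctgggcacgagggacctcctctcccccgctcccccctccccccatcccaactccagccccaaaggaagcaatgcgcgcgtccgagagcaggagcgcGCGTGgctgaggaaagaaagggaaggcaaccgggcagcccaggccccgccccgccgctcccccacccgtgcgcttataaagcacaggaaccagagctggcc
BNIP3, chr10:131981924-131982173, minus strand: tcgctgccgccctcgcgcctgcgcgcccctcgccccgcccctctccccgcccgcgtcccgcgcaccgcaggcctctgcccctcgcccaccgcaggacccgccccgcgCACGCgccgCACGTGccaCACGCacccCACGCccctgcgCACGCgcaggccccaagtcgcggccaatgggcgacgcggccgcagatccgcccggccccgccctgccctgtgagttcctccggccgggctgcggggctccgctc
ANKRD37, chr4:185396591-185396840, plus strand: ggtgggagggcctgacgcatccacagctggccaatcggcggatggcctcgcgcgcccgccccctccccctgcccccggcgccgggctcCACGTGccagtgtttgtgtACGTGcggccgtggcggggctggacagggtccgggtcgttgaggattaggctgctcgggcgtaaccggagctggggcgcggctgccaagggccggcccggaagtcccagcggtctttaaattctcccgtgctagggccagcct

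The CA9 window held 1 ACGTG, read on the opposite strand, 18 bases before the start. The ADM window held 1 GCGTG at 101 bases. The BNIP3 window held 6 matches between 143 and 104 bases before the start, of which 2 were ACGTG; 4 or more matches were found in 3.22% of all promoters. The ANKRD37 window held 3 matches of ACGTG, at 162, 161 and 143 bases, a number reached by 1.55% of all promoters. The cut-offs of these shares differ between BNIP3 and ANKRD37. G and C made up 81.6% of the BNIP3 and 71.6% of the ANKRD37 window, and the promoters behind the shares were not matched for base composition. Of the others, HIF1A held 1 GCGTG at 204 bases before its first listed start and none at its second. EPAS1 held 1 GCGTG at 117 bases, and the windows of EGLN3 and SLC2A1 held neither core. The EGLN3 window ends at 33951324, whereas the minus-strand gene reaches 34462774. For SLC2A1 these positions are 42959118 and 42959176. The bases before the outermost start of EGLN3 and SLC2A1 were thus not searched. A match is a string of letters and not a measured binding site, and elements outside the window were not searched.

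The values corresponded to 15651172 to 17479732 recovered fragments per CD20+ library and 16666543 to 17915936 per CD20- library. The library size implied by the values was 15107847 to 16032265 in CD20+ and 17830468 to 19782432 in CD20- libraries. It was below the recovered fragments in CD20+ replicates 1 and 3 and above them in the other libraries. The deposited scaling thus put CD20+ values higher than scaling by recovered fragments would. That scaling was not run, and the sign of small changes may depend on it. MS4A1, which encodes CD20, averaged 1.16 ± 0.170 FPKM in CD20+ and 0.297 ± 0.0940 FPKM in CD20- cells (SD, n = 3 each), a ratio of 3.91 with no overlap (exact permutation test, two-sided, p = 0.1, the smallest that 3 against 3 can give). Mitochondrially encoded genes took 11.9 to 20.6% of the fragments in CD20+ libraries and 4.25 to 5.73% in CD20- libraries, and cytosolic ribosomal protein genes 2.58 to 4.15% and 6.53 to 6.82%. The 10 melanocytic markers summed to 30.7 to 37.3 FPKM in CD20+ and 20.7 to 22.7 FPKM in CD20- libraries. In replicate 1 GPR143 gave 13.4 FPKM of the CD20+ sum and 9.61 FPKM of the CD20- sum. The 9 B-cell markers, of which BANK1 and POU2AF1 were at 0, summed to 6.19 to 8.26 and 4.03 to 7.44 FPKM, and the 8 epithelial markers to 509 to 646 and 414 to 556 FPKM. The part of these shifts in the results below was not tested. In bulk libraries a smaller number of cells making an RNA and less of that RNA per cell cannot be told apart.

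Changes were fitted with limma on log2(FPKM + 1) as CD20+ minus CD20-, with p-values adjusted by Benjamini-Hochberg over all tested genes and a threshold of 0.05; this scale understates the change of genes with low values. Without a replicate term, 0 of the 10 genes passed, against 0.0076% of all tested genes (1 gene, the mitochondrial tRNA gene MT-TE). Of the 10, 1 had an unadjusted p under 0.05, against 9.2% of all tested genes. Run on the recovered fragments, limma's voom also called 0. It used the library sizes implied by the deposited values, so it kept their scaling and is no separate check of it. The replicate number was also fitted as a block, which takes equal numbers as pairs and is an assumption. With it, 3 of the 10 passed, SLC2A1, ADM and NDRG1, each higher in CD20+ cells, and 0 lower. Of all tested genes 5.83% passed in either direction, 3.19% higher and 2.64% lower. The 3 calls were lost without both libraries of replicate 2, where 0 of the 10 and 1 of 13118 tested genes passed. They were also lost without those of replicate 3, where 0 of the 10 and 337 of 13011 tested genes passed. Without both of replicate 1 they stood and CA9 and VEGFA were called as well, 5 of the 10 beside 2162 of 13311 genes, in a fit whose prior degrees of freedom were infinite for 89.6% of genes (89.5% without replicate 3), so that those p-values rest on the spread pooled over genes. In the 3 pairs, 6 of the 10 were higher in CD20+ cells and 0 lower, which held for 21.8% and 20.3% of all tested genes.

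**Figure D1:**
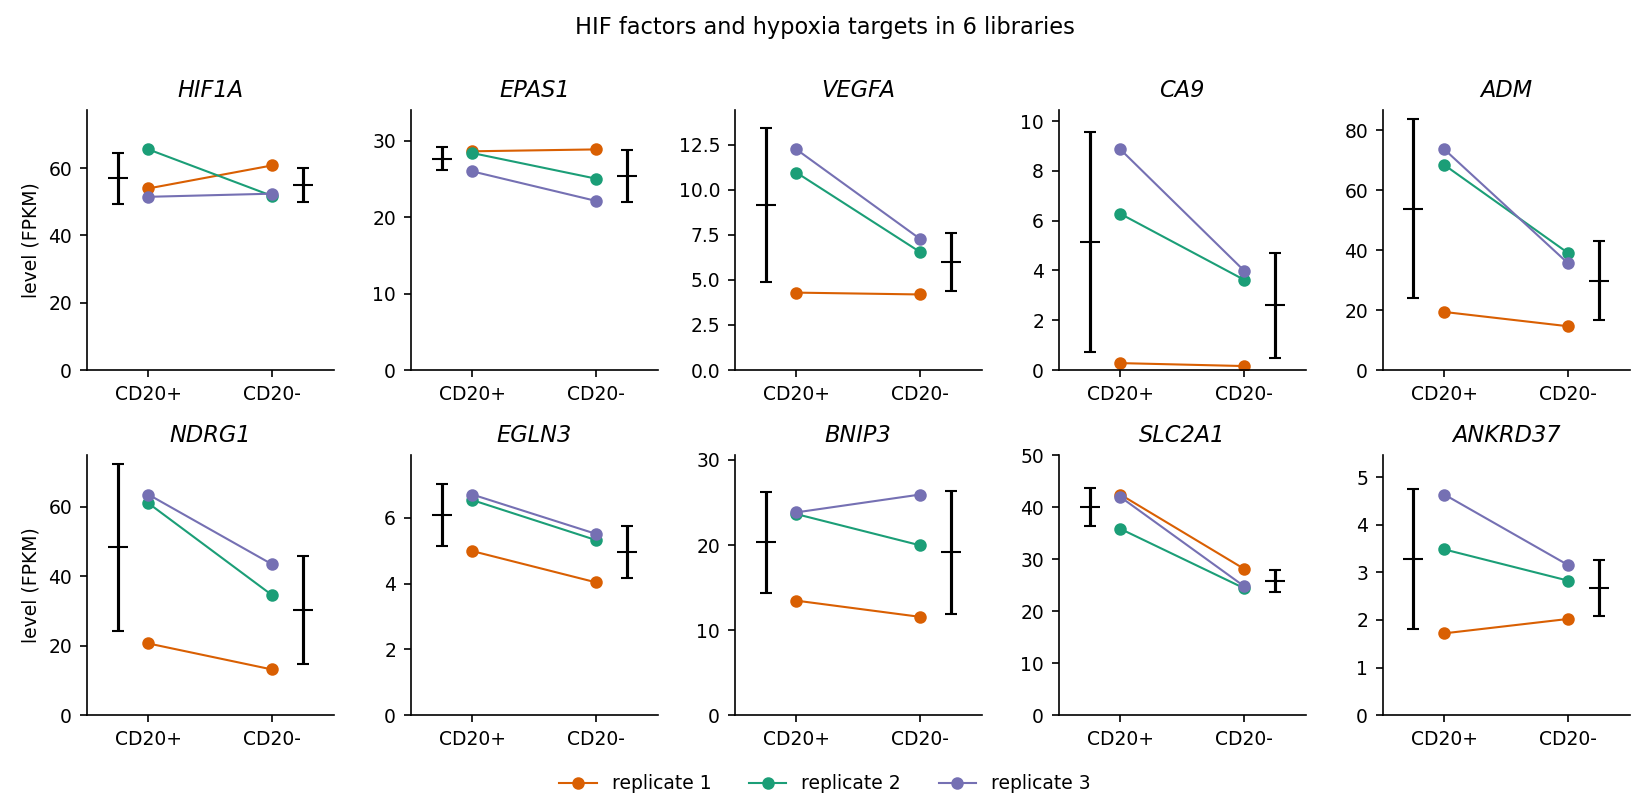
Level in FPKM (vertical axes from 0, one scale per gene) of the 10 genes in the 3 CD20+ and 3 CD20- libraries; lines join libraries with the same replicate number, and the black marks give the group mean ± SD (n = 3). SLC2A1 has groups that do not overlap, and in 7 genes, among them CA9, ADM and NDRG1, both replicate 1 libraries lie lowest.

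Neither alpha subunit passed the test, and both had groups that overlapped. HIF1A (ENSG00000100644, GRCh38 chr14:61695513-61748259, plus strand), the widely expressed alpha subunit, measured 54.0, 65.6 and 51.5 FPKM in CD20+ replicates 1, 2 and 3 and 60.8, 51.8 and 52.4 FPKM in CD20- replicates 1, 2 and 3. The groups overlapped, and CD20+ replicate 2 was the highest of the 6. Its log2 change was 0.05 ± 0.16 (SE; 95% interval -0.34 to 0.43; limma, adjusted p = 0.956, and 0.911 with the block), so neither a rise nor a fall could be told at this spread. The sign turned to -0.056 without CD20+ replicate 2 and to -0.46 when libraries were scaled to their FPKM total.

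EPAS1 (ENSG00000116016, GRCh38 chr2:46293667-46386703, plus strand) encodes HIF-2 alpha, the second main alpha subunit. It measured 28.6, 28.4 and 26.0 FPKM in CD20+ and 28.9, 25.04 and 22.1 FPKM in CD20- replicates 1, 2 and 3. The groups overlapped, since the highest value was that of CD20- replicate 1. The log2 change of 0.13 ± 0.15 (SE) had a 95% interval of -0.22 to 0.48 (limma, adjusted p = 0.822), and it was -0.37 under scaling to the FPKM total. HIF1A exons shared 117 bases with the antisense gene HIF1A-AS1, which did not exceed 0.775 FPKM, and the processed pseudogene HIF1AP1 did not exceed 1.89 FPKM.

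EGLN3 (ENSG00000129521, GRCh38 chr14:33924231-34462774, minus strand) encodes a HIF prolyl hydroxylase that is itself a HIF target and so part of the feedback on the alpha subunits. It measured 4.99, 6.54 and 6.71 FPKM in CD20+ and 4.04, 5.33 and 5.52 FPKM in CD20- replicates 1, 2 and 3. Each pair differed by nearly the same ratio, 1.24, 1.23 and 1.22, and the groups still overlapped because CD20+ replicate 1 was below 2 of the CD20- libraries. The log2 change was 0.25 ± 0.17 (SE; limma, adjusted p = 0.676, and 0.294 with the block), and with the FPKM total it was -0.18.

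SLC2A1 had the groups that lay farthest apart for their spread among the metabolic targets. SLC2A1 (ENSG00000117394, GRCh38 chr1:42925375-42959176, minus strand) encodes the glucose transporter GLUT1. It measured 42.4, 35.8 and 41.9 FPKM in CD20+ replicates 1, 2 and 3 and 28.1, 24.4 and 24.8 FPKM in CD20- replicates 1, 2 and 3. The lowest CD20+ library lay above the highest CD20- library, which held for 1 of the 10 genes and for 8.87% of all tested genes; 0 of the 10 were lower without overlap, against 6.14% of all tested genes. The group means were 40.0 ± 3.68 and 25.8 ± 2.05 FPKM (SD, n = 3 each), a ratio of 1.55. The log2 change of 0.61 ± 0.14 (SE; 95% interval 0.28 to 0.95) missed the threshold without the block (limma, adjusted p = 0.293) and passed it with the block (adjusted p = 0.0291). Without both libraries of replicate 2 or 3 the paired adjusted p was 0.125 and 0.325. The change stayed above 0 under the scalings run, at 0.11 with the FPKM total.

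CA9 (ENSG00000107159, GRCh38 chr9:35673856-35681159, plus strand) encodes a membrane carbonic anhydrase that acidifies the outside of the cell and is among the genes that respond most to hypoxia. It measured 0.277, 6.27 and 8.86 FPKM in CD20+ replicates 1, 2 and 3 and 0.159, 3.63 and 3.996 FPKM in CD20- replicates 1, 2 and 3. Both replicate 1 libraries were far below the rest, by 31.9 times from the highest to the lowest CD20+ library and 25.1 times in the CD20- group. They rested on 7 and 5 fragments, with exact Poisson intervals (95%, counting error only) of 2.81 to 14.4 and 1.62 to 11.7, so within replicate 1 no difference was detectable at this depth. The group means were 5.14 ± 4.40 and 2.59 ± 2.12 FPKM (SD, n = 3 each). The log2 change of 0.59 ± 0.87 (SE) did not pass (limma, adjusted p = 0.871, and 0.0574 with the block), and it was -0.093 without CD20- replicate 1. With both libraries of replicate 1 left out, the paired fit gave 0.82 (adjusted p = 3.77e-05). CA9 shares 643 of its 1670 exon bases with ARHGEF39 on the other strand, which reached 5.37 FPKM, and the use of strand in counting is not given in the sources used here, so its value is uncertain.

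BNIP3 (ENSG00000176171, GRCh38 chr10:131966455-131982013, minus strand), a receptor for mitophagy on the outer mitochondrial membrane, measured 13.5, 23.6 and 23.8 FPKM in CD20+ and 11.6, 19.97 and 25.9 FPKM in CD20- replicates 1, 2 and 3. The pairs went both ways, with the CD20+ library lower in replicate 3. The log2 change was 0.11 ± 0.33 (SE; limma, adjusted p = 0.948); its sign turned without CD20+ replicate 2, CD20+ replicate 3 or CD20- replicate 1 and under the FPKM total (-0.38). Processed pseudogenes of BNIP3 were listed at up to 1.62 FPKM (BNIP3P11), so some reads may be split with them.

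The secreted factors VEGFA and ADM had higher means in CD20+ cells, with wide spread. VEGFA (ENSG00000112715, GRCh38 chr6:43770184-43786487, plus strand), the main growth factor for blood vessels, measured 4.29, 10.95 and 12.2 FPKM in CD20+ and 4.19, 6.55 and 7.28 FPKM in CD20- replicates 1, 2 and 3. Within replicate 1 the fractions were nearly equal, at a ratio of 1.02, and the ratios of replicates 2 and 3 were 1.67 and 1.68. The log2 change of 0.46 ± 0.37 (SE) did not pass in either fit (limma, adjusted p = 0.737, and 0.11 with the block), and passed in the paired fit without replicate 1 (0.67, adjusted p = 0.00149). Under the FPKM total it was 0.02.

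ADM (ENSG00000148926, GRCh38 chr11:10304680-10307397, plus strand) encodes adrenomedullin, a vasodilator peptide. It measured 19.4, 68.5 and 73.7 FPKM in CD20+ replicates 1, 2 and 3 and 14.6, 39.1 and 35.7 FPKM in CD20- replicates 1, 2 and 3. Each CD20+ library was above its CD20- partner, by 1.33, 1.75 and 2.07 times, while CD20+ replicate 1 lay below CD20- replicates 2 and 3. The group means were 53.8 ± 30.0 and 29.8 ± 13.3 FPKM (SD, n = 3 each). The log2 change was 0.73, with an SE of 0.58 without the block (limma, adjusted p = 0.728) and 0.16 with it (adjusted p = 0.0236). It was 0.30 without CD20- replicate 1 and 1.34 without CD20+ replicate 1. Without both libraries of replicate 2 or 3 the paired adjusted p was 0.15 and 0.251. Under the FPKM total the change was 0.24.

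NDRG1 (ENSG00000104419, GRCh38 chr8:133237171-133302022, minus strand), a cytoplasmic protein known to be induced by hypoxia and in differentiation, measured 20.6, 60.9 and 63.4 FPKM in CD20+ and 13.1, 34.5 and 43.4 FPKM in CD20- replicates 1, 2 and 3. The ratios within the pairs were 1.57, 1.77 and 1.46, so replicate 1 showed the difference as well, at a level about as far below the other replicates as in ADM. The log2 change was 0.65, with an SE of 0.56 without the block (limma, adjusted p = 0.753) and 0.14 with it (adjusted p = 0.025). It was 0.15 without CD20- replicate 1 and 1.17 without CD20+ replicate 1. Without both libraries of replicate 2 or 3 the paired adjusted p was 0.138 and 0.0909, and under the FPKM total the change was 0.15.

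ANKRD37 (ENSG00000186352, GRCh38 chr4:185396021-185400628, plus strand), a small ankyrin-repeat protein whose gene is a known HIF target, was the lowest of the 10. It measured 1.72, 3.48 and 4.63 FPKM in CD20+ and 2.02, 2.83 and 3.15 FPKM in CD20- replicates 1, 2 and 3, on 67 to 189 fragments per library. The CD20+ library was lower in replicate 1 and higher in replicates 2 and 3. The log2 change of 0.17 ± 0.28 (SE) did not pass (limma, adjusted p = 0.887, and 0.56 with the block), and turned to -0.19 under the FPKM total and to -0.058 without CD20+ replicate 3. It shares 909 of its 2580 exon bases with UFSP2 on the other strand, which reached 4.82 FPKM, so its value is uncertain.

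**Figure D2:**
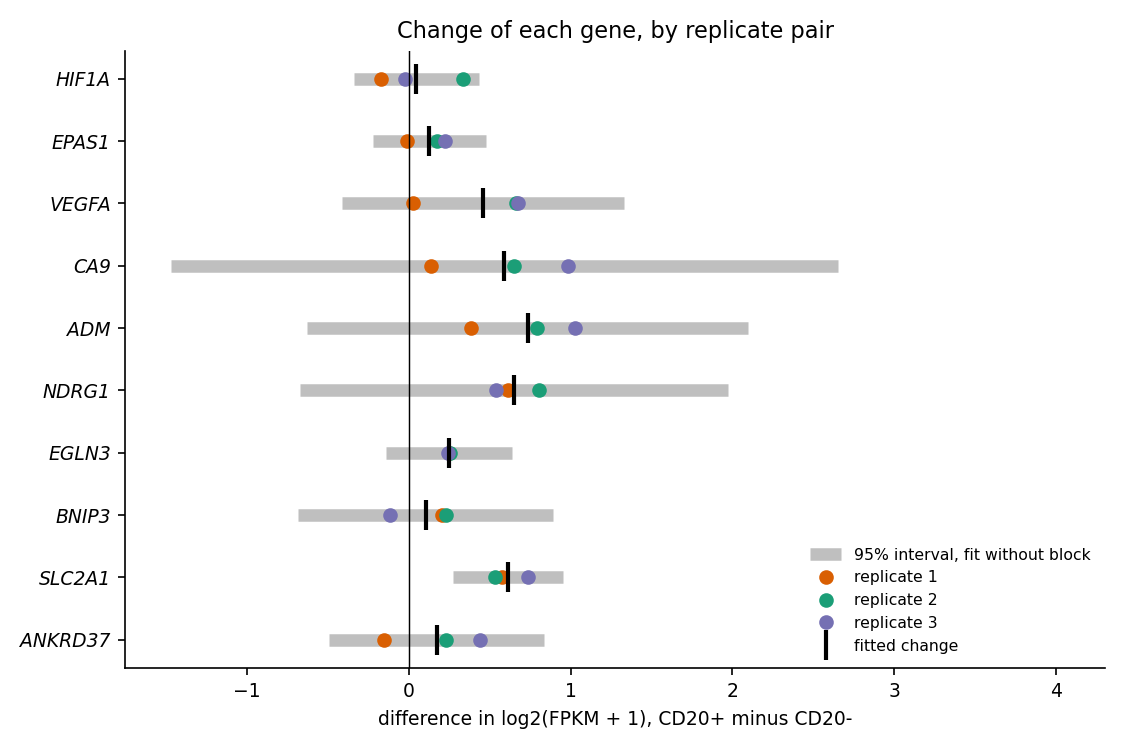
Difference in log2(FPKM + 1), CD20+ minus CD20- (horizontal axis), for each gene within each replicate pair (coloured points), with the fitted change (black tick) and its 95% interval in the fit without the block (grey bar, n = 3 per group). The interval lies above 0 for SLC2A1 alone of the 10, from 0.28 to 0.95, and spans -1.47 to 2.65 for CA9.

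Scaling each library to its FPKM total put the median change over the tested genes at -0.41; the mitochondrially encoded genes are part of that total. Relative to this median, the changes under that scaling were 0.65 for ADM, 0.57 for NDRG1, 0.52 for SLC2A1, 0.76 for CA9, 0.43 for VEGFA, 0.23 for EGLN3, 0.22 for ANKRD37, 0.04 for EPAS1, 0.03 for BNIP3 and -0.05 for HIF1A. With the mitochondrially encoded genes left out of the total, the 10 changes were positive, from 0.15 for HIF1A to 0.84 for ADM. The median change of the 10 was 0.35 with the values as deposited, and 0.17, 0.44 and 0.49 within pairs 1, 2 and 3, beside 0.00 for all tested genes in the fit.

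The range of the replicate means differed widely among the 10 genes. A range of 3 means and the fitted change between the fractions are unlike measures, and no test compared them. The range of the 3 replicate means, each the mean of a CD20+ and a CD20- library on the log2(FPKM + 1) scale, was 2.53 for CA9, 1.61 for NDRG1, 1.56 for ADM, 1.00 for VEGFA, 0.94 for BNIP3 and 0.76 for ANKRD37. It was 0.37 for EGLN3, 0.25 for EPAS1, 0.22 for SLC2A1 and 0.16 for HIF1A, beside a median of 0.34 over all tested genes. A range of at least 1 was reached by 3 of the 10 genes and 5.91% of all tested genes, given here as a description with no test. Both replicate 1 libraries were the lowest of their groups in 7 of the 10, which held for 27.7% of all tested genes. The 7 were VEGFA, CA9, ADM, NDRG1, EGLN3, BNIP3 and ANKRD37. SLC2A1 and EPAS1 went the other way, with replicate 1 the highest of both groups, and HIF1A was mixed.

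**Figure D3:**
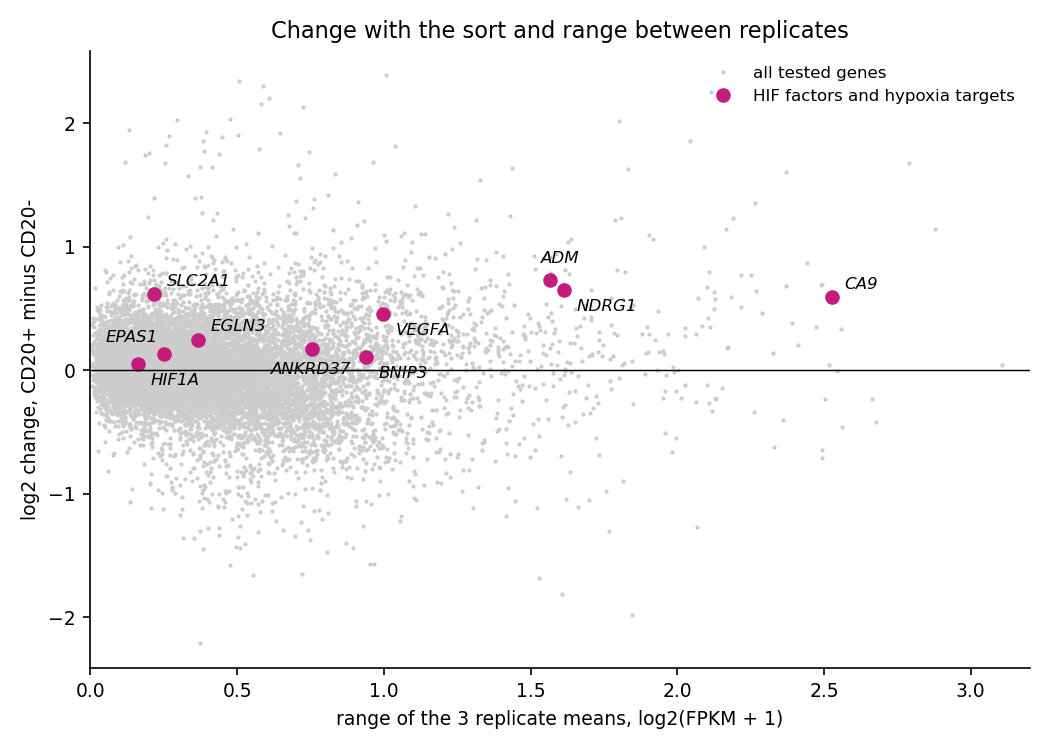
Log2 change with the sort, CD20+ minus CD20- (vertical axis), against the range of the 3 replicate means on the log2(FPKM + 1) scale (horizontal axis), for all 13155 tested genes (grey) and the 10 genes (pink, labelled). CA9, NDRG1 and ADM lie far to the right, at 2.53, 1.61 and 1.56, whereas SLC2A1 has a like change at a range of 0.22.

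Ordered by mean FPKM, a level per length, over the 6 libraries, the genes ran from HIF1A (56.0 FPKM) through ADM (41.8), NDRG1 (39.3), SLC2A1 (32.9), EPAS1 (26.5), BNIP3 (19.7), VEGFA (7.58), EGLN3 (5.52) and CA9 (3.87) to ANKRD37 (2.97). The level of BNIP3 was above that of VEGFA in 6 of the 6 libraries. Each other gene was above its next neighbour in 4 or 5 of the 6 libraries, so those neighbours were not apart beyond their spread. ADM exceeded HIF1A in CD20+ replicates 2 and 3, whereas HIF1A was the higher in CD20+ replicate 1 and in each CD20- library.

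Other genes of the pathway were taken from 3 lists, with the 4 of each that had the smallest p named by rule. Without the block 0 genes of the 3 lists passed. Among 18 tested genes of oxygen sensing and the HIF machinery, of 19 listed, the paired fit called 1 higher and 1 lower, against 3.19% and 2.64% of all tested genes, and the median change was 0.00. Both calls were lost without both libraries of replicate 2 or of replicate 3, where 1 of 13118 and 337 of 13011 tested genes passed. Without the block 3 had an unadjusted p under 0.05, against 9.2% of all tested genes. ELOC, elongin C of the VHL ubiquitin ligase, fell to 5.93 ± 2.06 FPKM in CD20+ cells, against 9.01 ± 2.83 FPKM in CD20- cells (SD, n = 3 each; paired limma, log2 change -0.54, adjusted p = 0.0372). ARNT2, a partner of the alpha subunits and chosen after its values were seen, was the gene called higher (0.66, adjusted p = 0.025). OS9, a lectin of the endoplasmic reticulum, measured 37.2 ± 1.33 FPKM in CD20+ and 27.7 ± 1.54 FPKM in CD20- cells with no overlap, without a call (adjusted p = 0.429, and 0.116 with the block), and its change of 0.41 turned to -0.090 under the FPKM total. P4HTM, a prolyl hydroxylase of the endoplasmic reticulum membrane, had 12.7 ± 2.38 and 8.73 ± 1.45 FPKM (paired adjusted p = 0.0699; change 0.50, and 0.03 under the FPKM total), and USP20, a deubiquitinase, 8.44 ± 0.701 and 6.40 ± 1.10 FPKM in CD20+ and CD20- cells (paired adjusted p = 0.188, change -0.10 under the FPKM total).

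Of 44 HIF targets listed apart from the glycolysis and lactate genes 36 were tested. The list still held PFKFB3 and PFKFB4, whose products regulate glycolysis, so the split is not strict. The paired fit called 10 of the 36 higher, PFKFB4 among them, and 0 lower, against 3.19% of all tested genes higher and 2.64% lower. The median change was 0.30. Without both libraries of replicate 3 it called 5 higher, beside 175 of 13011 genes. Without those of replicate 2 it called 0, beside 1 of 13118 genes in either direction. Without those of replicate 1 it called 18 higher, beside 1039 of 13311 genes. ANGPTL4, a secreted inhibitor of lipoprotein lipase, measured 24.3, 22.3 and 28.1 FPKM in CD20+ and 9.95, 9.58 and 10.1 FPKM in CD20- replicates 1, 2 and 3. It had no overlap between the groups and a small range between replicates, as SLC2A1 did, and its log2 change was 1.24 ± 0.14 (SE; limma, adjusted p = 0.147 without the block and 0.000876 with it). The other genes named by rule were also called in the paired fit: the collagen prolyl hydroxylase P4HA2 at 0.87 (adjusted p = 0.00963), the lysyl hydroxylase PLOD1 at 0.62 (adjusted p = 0.0344) and the crosslinking enzyme LOXL2 at 1.17 (adjusted p = 0.00302). Under the FPKM total these changes were 0.42, 0.12 and 0.67. P4HA1 (0.41, paired adjusted p = 0.126) and PLOD2 (0.44, paired adjusted p = 0.162), of the same enzyme families and named after their values were seen, were not called. Others called, chosen after their values were seen, were LOX (1.22), STC1 (0.92), PFKFB4 (0.64), ANKZF1 (0.59) and BHLHE40 (0.57). The remaining 26 were not called, among them the stress-induced mTOR inhibitor DDIT4 at 145 ± 8.95 FPKM in CD20+ and 143 ± 21.9 FPKM in CD20- cells (SD, n = 3 each), also chosen after its values were seen.

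The 18 glycolysis and lactate genes, all tested, had 2 called higher and 0 lower in the paired fit, against 3.19% and 2.64% of all tested genes, with a median change of 0.14. Without both libraries of replicate 2 the paired fit called 0 of the 18, beside 1 of 13118 tested genes. Without those of replicate 3 it called 1, beside 337 of 13011. Under the FPKM total, without the block, 0 were called higher and 4 lower, beside 28 and 1354 of 13155. The 2 called higher in the paired fit were the neuronal enolase ENO2 and the glucose transporter SLC2A3, the second chosen after its values were seen. ENO2 measured 41.5 ± 25.7 FPKM in CD20+ and 17.6 ± 9.18 FPKM in CD20- cells (1.09, paired limma, adjusted p = 0.00358). The change of SLC2A3 was 0.62 (paired limma, adjusted p = 0.0357). With the values as deposited 14 of the 18 changes were positive, beside 6585 of 13155 tested genes. Those of LDHA (-0.30), TPI1 (-0.26), PGAM1 (-0.21) and GAPDH (-0.19) were negative, without a call in the paired fit. SLC16A3, which exports lactate, measured 50.1 ± 4.73 FPKM in CD20+ and 34.1 ± 3.02 FPKM in CD20- cells with no overlap (paired adjusted p = 0.0611). Its change of 0.54 was 0.03 under the FPKM total. The phosphofructokinases PFKP and PFKL also had no overlap, at 55.0 ± 0.330 and 35.6 ± 2.03 FPKM in CD20+ cells and 44.0 ± 3.82 and 29.01 ± 4.72 FPKM in CD20- cells, and no call (paired adjusted p = 0.247 and 0.268); under the FPKM total their changes turned to -0.19 and -0.21.

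**Figure D4:**
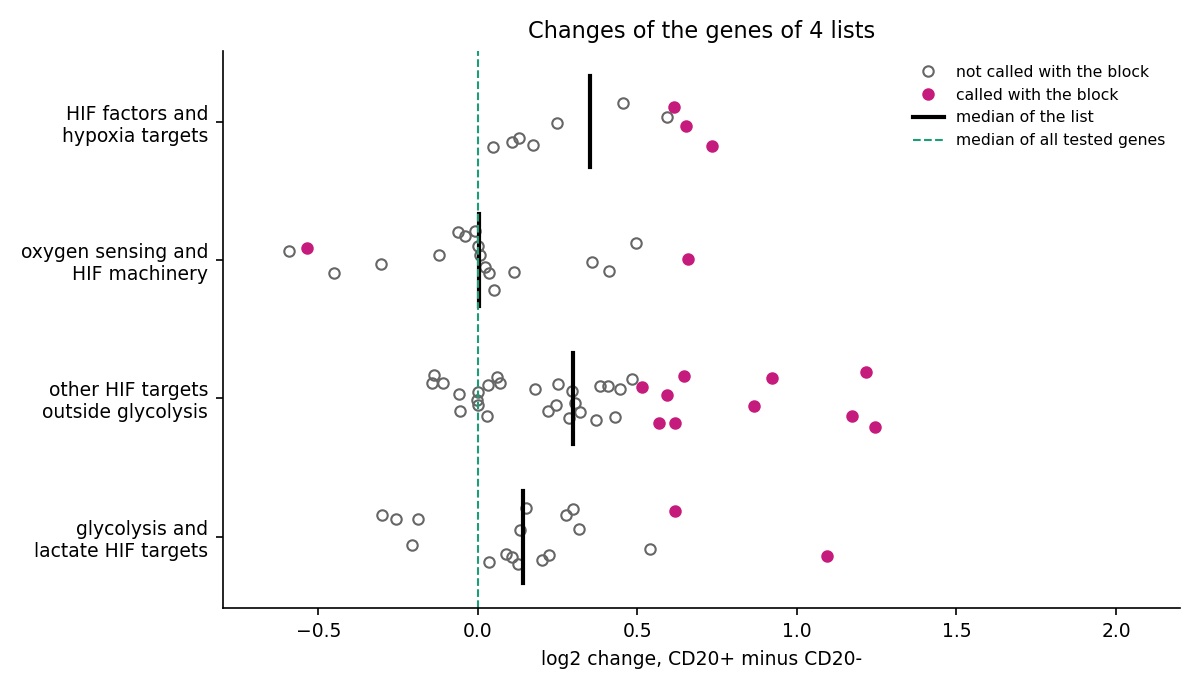
Log2 change, CD20+ minus CD20- (horizontal axis), of each tested gene of 4 lists; filled points passed the threshold in the paired fit, open points did not, the black bar is the median of the list and the dashed line the median of all tested genes. The lists hold 10, 18, 36 and 18 tested genes from top to bottom, of which 3, 2, 10 and 2 were called. The list labelled as outside glycolysis also holds the glycolysis regulators PFKFB3 and PFKFB4.

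Likeness in pattern was measured as Pearson's r on log2(FPKM + 1) over the 6 libraries, among 4201 protein-coding genes averaging 10 FPKM or more, as a description without a test. For VEGFA the 3 nearest genes were the amino acid transporter SLC7A1 (r = 0.994), the RNA helicase DDX17 (0.994) and the chromatin remodeller CHD1L (0.994), with r between 0.991 and 0.998 without the 2 libraries farthest from the VEGFA median. For HIF1A they were CWF19L1 (0.968), PDCD6IP (0.966) and PCYOX1 (0.966), and r fell to 0.403 and 0.381 for the last 2 without CD20+ replicate 2 and CD20- replicate 1, so these rest on those libraries.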

How the data were processed

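Polyadenylated RNA of 6 libraries was sequenced on an Illumina NovaSeq from TruSeq libraries, per the labels' protocols. The submitters' processing notes list GRCh38 (hg38), the aligner HISAT2, the counter featureCounts 1.5.0 and DESeq2, without settings or the use of strand. The deposited values are FPKM by their values, since the header names no unit: multiplied by exon length in GENCODE 29 they gave whole multiples of 1 step per library for 98.1 to 98.6% of low values (up to 20 fragments, tolerance 0.02), and the step gave the recovered fragments. Of 58395 identifiers 58275 matched.

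Genes averaging 1 FPKM or more were fitted with limma 3.58.1 (trend, robust prior) in R 4.3.3 on log2(FPKM + 1), checked on simulated data. The simulated libraries had no replicate effect, so the check does not cover the spread between replicate numbers seen here. Same-numbered libraries deviated together from their group means (correlation 0.67 in replicate 1, 0.24 in replicate 2 and 0.51 in replicate 3) and were treated as pairs. The minimum for pairing was 0.1. Crossed numbers 2 and 3 correlated at 0.43 and 0.40, above the 0.24 within replicate 2 and also past that minimum. The check thus sets replicate 1 apart but cannot tell how numbers 2 and 3 pair. The paired fit leaves 2 residual degrees of freedom per gene. The rule named the 10 genes, MS4A1, the 4 smallest p of each list and the 3 most alike genes for HIF1A and VEGFA. Members and lists were chosen with earlier results of these data known. Alternatives covered the pseudocount, filter, scaling, voom, block and left-out libraries; block with FPKM total was added after seeing the data. The values of 1 listed gene are not reported here.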

Additional observations from a re-analysis of the deposited data

How the results depend on the processing

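The count of called genes, 1 (1 higher, 0 lower), was 0 with no filter and with voom, 8 with quantile normalisation, 1382 (28 higher, 1354 lower) with the FPKM total, 767 (420 higher, 347 lower) with the replicate block, 954 (447 higher, 507 lower) with the block and a filter of 10 FPKM, and 3923 (90 higher, 3833 lower) with the block and the FPKM total. Leaving out 1 library gave 0 to 321 genes, the most without CD20+ replicate 1, and the block without a pair gave 1 (replicate 2), 337 (replicate 3) and 2162 (replicate 1). Called among the 10 were 3 with the block and 0 to 5 with the block and a pair left out. With the block at 10 FPKM 3 of the 6 tested were called. In that fit the prior degrees of freedom were infinite for 93.4% of genes, so its p-values rest on the spread pooled over genes. The median change of the 10 genes, 0.35, turned to -0.081 with the FPKM total. In this balanced design the block leaves the fitted changes as they are. The median was 0.14 to 0.52 with 1 library left out and 0.30 to 0.48 in the block without a pair. Machinery genes called were 2 (both lower) with the FPKM total, 2 (1 higher, 1 lower) with the block, 3 (1 higher, 2 lower) with the block at 10 FPKM and 0 to 4 without a pair. Other targets called, all higher in these fits, were 1 with the FPKM total, 10 with the block at either filter, 0 to 18 without a pair and 0 to 3 with 1 library left out. Glycolysis genes called were 4 (all lower) with the FPKM total, but 2 with the block and 3 with the block at 10 FPKM (all higher), and 0 to 5 without a pair (4 higher and 1 lower at most). Under the FPKM total the sign turned for HIF1A (-0.46), EPAS1 (-0.37), EGLN3 (-0.18), BNIP3 (-0.38), ANKRD37 (-0.19), OS9 (-0.090), USP20 (-0.10), PFKP (-0.19) and PFKL (-0.21). With 1 library left out, HIF1A ranged from -0.056 to 0.12 (-0.10 in the block without replicate 2), CA9 from -0.093 to 1.501, BNIP3 from -0.20 to 0.36, ANKRD37 from -0.058 to 0.47, ADM from 0.30 to 1.34, NDRG1 from 0.15 to 1.17, VEGFA from 0.21 to 0.87, EGLN3 from 0.13 to 0.36, EPAS1 from 0.04 to 0.22 and SLC2A1 from 0.57 to 0.69. For these moves the cause was not tested. Of 392 values of 22 genes under the alternatives, 332 kept direction and side of the threshold, 39 passed it and 21 turned. Where only the filter or the block was changed the fitted change is the same by design, so the direction could not turn there. The MS4A1 ratio stayed above 1 in each setting run. With 1 library left out it could not do otherwise, since its groups do not overlap. The block is the paired analysis by replicate number, which is an assumption. Beyond SLC2A1, ADM and NDRG1 it changed no call of the 10. Depth limits CA9 in replicate 1.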
